A study of Homo sapiens with 12 samples.

Results

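The genes described here encode the nuclear subunits of the mitochondrial respiratory chain and of ATP synthase. They were taken by symbol from the array's annotation: symbols that start with NDUFA, NDUFB, NDUFC, NDUFS, NDUFV or NDUFAB before a digit (complex I), SDHA, SDHB, SDHC or SDHD (complex II), CYC1 and symbols in UQCR (complex III), symbols of the COX4 to COX8 families (complex IV), and symbols in ATP5 (complex V). The rule found 86 gene symbols on 115 probes, of 20046 symbols among 47323 probes on the array. Of these, 83 were protein coding, UQCRBP1 and ATP5F1EP2 were pseudogenes and NDUFB2-AS1 was an antisense RNA. The rule also takes in COX7A2L, a relative of a complex IV subunit that helps to hold complexes together, and ATP5IF1, an inhibitor of ATP synthase.

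Total RNA from 2 established glioblastoma cell lines was measured on 12 Illumina bead arrays, 2 in each of 6 groups. DBTRG cells had been given Y15, an inhibitor of focal adhesion kinase (FAK), at 10 µM for 24 h, or were untreated. U87 cells had been given temozolomide (TMZ, an alkylating chemotherapy drug) together with 10 µM Y15, 10 µM Y15 alone, TMZ alone, or were untreated. The time was 24 h in all groups of both lines. For TMZ, 20 µM stands in the sample titles, but the design text names 100 µM. The labels do not say that the 2 arrays of a group came from separate cultures, so the p-values measure the spread between arrays, which may be technical. They name no batch, and their extraction protocol speaks of frozen tissue although the samples are cell lines.

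Electrons from NADH enter the respiratory chain at complex I and those from succinate at complex II. They pass through ubiquinone to complex III, then by cytochrome c to complex IV, which reduces oxygen. Complexes I, III and IV pump protons out of the mitochondrial matrix, and complex V uses the return flow to make ATP. Most subunits are encoded in the nucleus, and transcription factors such as NRF1, the ETS factor GABP and YY1 are known to act at many of their promoters.

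The promoters of the subunits were compared with those of other genes for the recognition letters of these 3 factors, since the subunits are known as a co-regulated set. RefSeq promoters (GRCh38.p14), 250 bases before to 50 bases after the start, were at hand for 62 of the 76 members that were tested. The NRF1 motif (GCGCA, any base, then GCGC) was found on either strand in 24.2% of them and in 8.58% of 15843 protein-coding promoters. CCGGAAG, an ETS motif, was found in 30.6% of the members and in 14.2% of the protein-coding promoters, and AANATGGCG, a YY1 motif, in 13 of the 62 and in 4.81%. Any of the 3 stood in 59.7% of the members' promoters, against 24.2% of the protein-coding ones. The members had to be detected on these arrays and the protein-coding set did not. Promoters of other detected genes were not compared, so the part of this gap that goes with being expressed was not tested. By complex, the NRF1 letters were in 6 of 30 promoters for I, 2 of 2 for II, 3 of 6 for III, 0 of 10 for IV and 4 of 14 for V. These are small numbers, and the complexes were not compared by a test. Such a match is a description of the letters, and it was not tied to any change below.

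These promoters are printed with the matched letters in capitals, because their genes passed the threshold in a treatment comparison: NDUFS1 and SDHA were lower in Y15-treated U87 cells, COX7A2L was higher in Y15-treated DBTRG cells and COX7B was higher in U87 cells given TMZ plus Y15. NDUFS1 lies at chr2:206159395-206159694 on the minus strand, SDHA at chr5:218070-218369 on the plus strand, COX7A2L at chr2:42361168-42361467 on the minus strand and COX7B at chrX:77899218-77899517 on the plus strand. The sequences run 5′ to 3′ along the gene.
NDUFS1: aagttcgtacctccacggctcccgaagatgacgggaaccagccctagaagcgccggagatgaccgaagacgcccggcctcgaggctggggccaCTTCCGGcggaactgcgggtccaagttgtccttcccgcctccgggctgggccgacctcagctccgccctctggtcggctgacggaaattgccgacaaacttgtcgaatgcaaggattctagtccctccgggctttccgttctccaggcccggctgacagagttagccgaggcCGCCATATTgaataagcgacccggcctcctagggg
SDHA: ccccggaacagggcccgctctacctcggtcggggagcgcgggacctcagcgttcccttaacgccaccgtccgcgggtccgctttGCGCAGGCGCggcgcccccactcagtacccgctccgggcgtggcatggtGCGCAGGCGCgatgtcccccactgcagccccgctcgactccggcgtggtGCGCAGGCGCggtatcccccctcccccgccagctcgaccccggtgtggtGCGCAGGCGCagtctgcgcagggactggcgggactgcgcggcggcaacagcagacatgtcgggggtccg
COX7A2L: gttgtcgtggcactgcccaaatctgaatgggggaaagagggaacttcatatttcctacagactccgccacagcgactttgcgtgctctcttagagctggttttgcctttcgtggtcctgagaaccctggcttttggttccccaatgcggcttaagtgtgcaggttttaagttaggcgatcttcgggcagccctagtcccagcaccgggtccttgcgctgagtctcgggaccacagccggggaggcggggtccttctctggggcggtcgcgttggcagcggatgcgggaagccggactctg
COX7B: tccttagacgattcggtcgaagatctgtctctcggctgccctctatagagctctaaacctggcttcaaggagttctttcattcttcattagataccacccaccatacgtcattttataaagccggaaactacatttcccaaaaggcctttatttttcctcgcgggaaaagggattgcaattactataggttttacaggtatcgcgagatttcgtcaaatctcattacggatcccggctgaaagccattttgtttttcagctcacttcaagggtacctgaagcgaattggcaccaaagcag
The SDHA promoter held 4 copies of the NRF1 letters. That of NDUFS1 held 1 ETS and 1 YY1 match, both on the opposite strand. Those of COX7A2L and COX7B held no match to these letters in this window.

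Signal above background (detection p under 0.01 on at least 2 arrays) was found for 76 of the 86 symbols, and 73 of these were detected on all 12 arrays. The tested members were 33 of 37 in complex I, 3 of 3 in complex II, 10 of 10 in complex III, 11 of 17 in complex IV and 19 of 19 in complex V. The 10 symbols detected on no array were NDUFA5, NDUFC2, NDUFS6, the antisense RNA NDUFB2-AS1 and 6 complex IV isoforms known for restricted tissue expression: COX4I2, COX6A2, COX6B2, COX7A1, COX7B2 and COX8C. Their widely expressed counterparts COX4I1, COX6A1, COX6B1, COX7A2, COX7B and COX8A were detected on every array. The 3 tested members detected on fewer arrays were NDUFB4 (2 arrays), ATP5MK (2 arrays) and NDUFB1 (the 8 U87 arrays). No annotated symbol was mitochondrially encoded.

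Between 14437 and 16889 probes were detected per array, with the 2 Y15-treated U87 arrays at 14437 and 15169. Replicate arrays correlated with Pearson's r between 0.986 and 0.995 across all genes. VIM, NES and CD44, markers of mesenchymal glioma lines, were detected on all arrays, whereas the glial markers GFAP and S100B, the leukocyte marker PTPRC, the endothelial marker CDH5 and the neuronal marker RBFOX3 were detected on none. Of the other endothelial and neuronal markers listed, PECAM1 was detected on 5 arrays, 2 of them with TMZ alone, and SYT1 on 2. CD68, listed as a leukocyte marker, was detected on all arrays. The epithelial keratin KRT18 was detected on all 4 DBTRG and no U87 arrays, KRT8 on 3 DBTRG arrays, and EPCAM on 4 U87 and no DBTRG arrays. The glial factor OLIG2 was detected on all 8 U87 and no DBTRG arrays, and SOX2 on all 4 DBTRG and the 2 TMZ-treated U87 arrays. In RNA from whole cultures, fewer cells of a kind and less RNA per cell cannot be told apart.

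In DBTRG cells, Y15 changed few of the chain's genes, and none by 2-fold. COX7A2L, NDUFS8, COX5B and NDUFA7 rose, while the complex V genes ATP5MC3, ATP5MC2 and ATP5F1A and the complex III gene UQCRC2 fell. Counting ATP5MK, which lay near background, 9 of 76 members passed the threshold (limma, Benjamini-Hochberg adjusted p under 0.05 over 11423 genes), 5 higher and 4 lower. That is 11.8% of the members, against 37.8% of all genes tested (19.4% higher and 18.4% lower). The treated and untreated arrays did not overlap for 37 of the members, against 64.1% of all genes. The members' median log2 change was -0.002, and that of all genes was 0.01. The members' median absolute change was 0.14, against 0.32 for all genes, with median standard errors of 0.12 and 0.15. A change of 2-fold or more was seen in 0 members and in 1045 of all genes, and the 95% intervals of 74 of the 76 members lay within 2-fold either way.

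**Figure D1:**
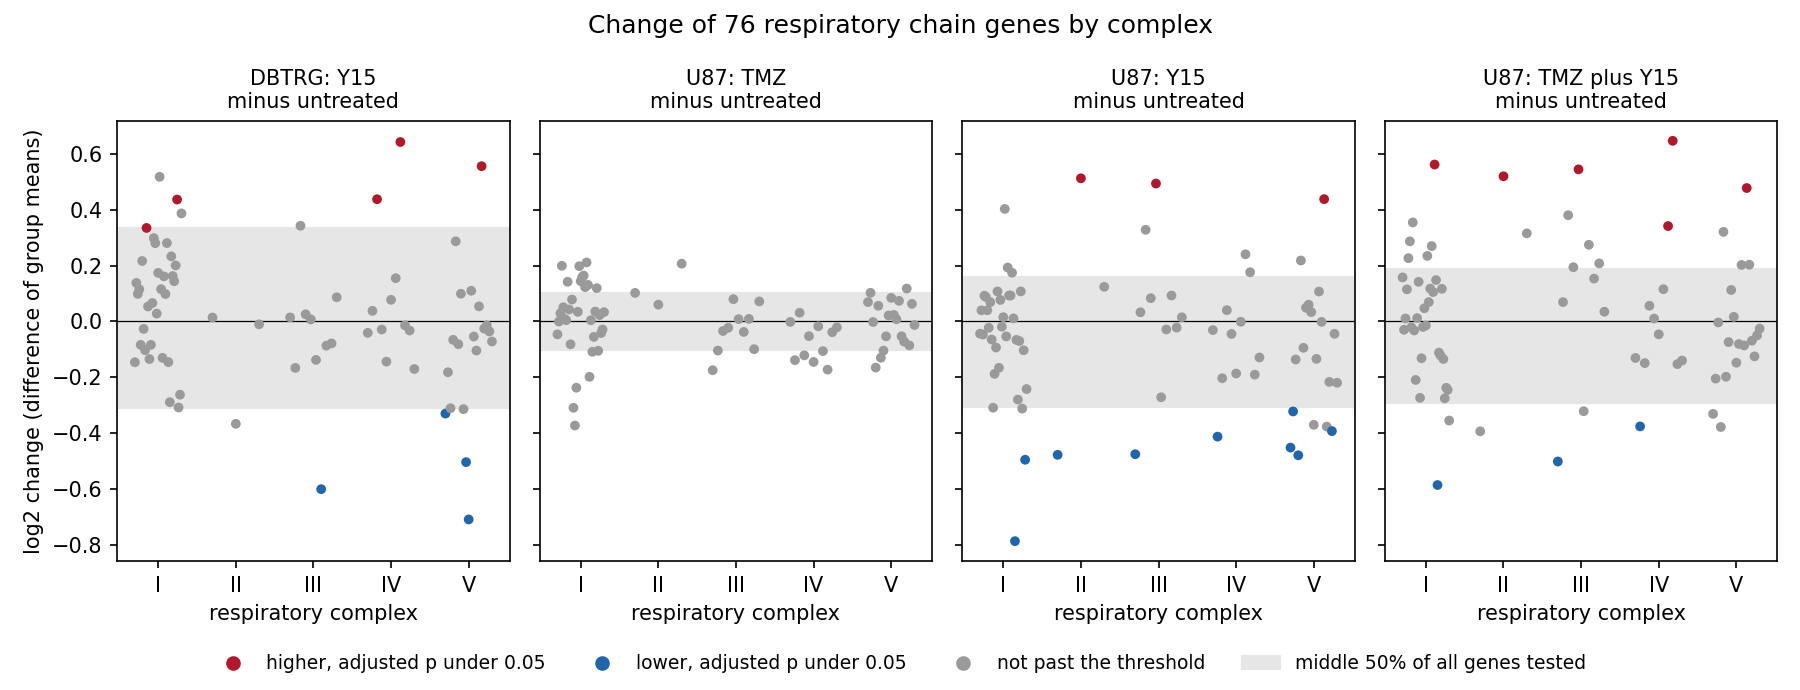
Log2 change of the 76 tested members (points) by respiratory complex for 4 treatments against untreated cells of the same line; red and blue mark adjusted p under 0.05, and the grey band is the middle 50% of all genes tested. Each Y15 panel has points past the threshold on both sides of 0, and the TMZ panel has none.

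In complex I of DBTRG cells, NDUFS8, a core subunit that carries iron-sulphur clusters near the ubiquinone site, read 12.20 and 12.40 (normalised log2 intensity) on the Y15 arrays and 11.90 and 11.82 on the untreated arrays. It rose by 0.44 ± 0.11 (log2, standard error), 1.35-fold, with an adjusted p of 0.0112. NDUFA7, a supernumerary subunit of the matrix arm, read 9.64 and 9.68 with Y15 and 9.26 and 9.40 untreated, a rise of 0.33 ± 0.11 (adjusted p = 0.0312). For both genes each treated array stood above each untreated one. The core subunits NDUFS1, NDUFV1 and NDUFV2 had log2 changes of -0.29, -0.31 and -0.26, which did not pass (adjusted p = 0.208, 0.285 and 0.118). No membrane-arm gene of 19 passed in DBTRG cells, with 2 at an unadjusted p under 0.05.

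Complex II showed no gene past the threshold in DBTRG cells. SDHC, a membrane anchor, read 8.68 and 8.64 with Y15 and 9.05 and 9 untreated, a log2 change of -0.37 ± 0.16 (adjusted p = 0.0991). Its second kept probe changed by -0.52 (adjusted p = 0.00964 with every probe tested on its own). SDHA, the catalytic flavoprotein, changed by 0.01 on the probe used here and by -0.50 (adjusted p = 0.0128) on its other probe, so the 2 probes disagreed in this line.

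UQCRC2, a core protein of complex III, read 9.54 and 9.46 on the Y15-treated DBTRG arrays and 9.99 and 10.21 on the untreated ones. It fell by 0.60 ± 0.13 on the log2 scale, to 0.659 of the untreated level (adjusted p = 0.00369). Its partner UQCRC1 had a log2 change of -0.14 (adjusted p = 0.494). CYC1, the haem protein that passes electrons to cytochrome c, read 11.40 and 11.53 with Y15 and 11.50 and 11.40 untreated, so its arrays overlapped.

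In complex IV of DBTRG cells, COX7A2L read 11.30 and 11.10 with Y15 and 10.53 and 10.58 untreated. This was the member with the smallest adjusted p in the comparison: a rise of 0.64 ± 0.11 on the log2 scale, 1.56-fold, with an adjusted p of 0.00105. It passed under each of the 12 other settings tried, between 0.54 and 0.81. COX5B, a zinc-binding subunit on the matrix side, read 12.21 and 12.32 with Y15 and 11.96 and 11.70 untreated, a rise of 0.44 ± 0.12 (adjusted p = 0.014). COX4I1, the widely expressed form of subunit 4, read 12.32 and 12.23 with Y15 and 12.34 and 12.30 untreated, and changed by -0.04 ± 0.11.

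The c ring of complex V, the rotor through which protons pass, is made of 1 kind of mature protein encoded by 3 genes. ATP5MC3 read 7.01 and 7.11 on the Y15-treated DBTRG arrays and 7.95 and 7.59 on the untreated ones, and fell by 0.71 ± 0.16 on the log2 scale (adjusted p = 0.00513). ATP5MC2 read 12.08 and 12 with Y15 and 12.44 and 12.66 untreated, and fell by 0.50 ± 0.13 (adjusted p = 0.0128). For both genes every treated array lay below every untreated one. ATP5MC1 read 10.53 and 10.39 with Y15 and 10.73 and 10.82 untreated, a change of -0.31 ± 0.14 that did not pass (adjusted p = 0.0982). Its second kept probe was higher, at 7.63 and 7.81 with Y15 and 7.37 and 7.57 untreated, so its probes disagreed. ATP5F1A, the alpha subunit of the F1 head, read 12.70 and 12.86 with Y15 and 13.23 and 12.99 untreated, and fell by 0.33 ± 0.12 (adjusted p = 0.0462). That call was lost under 7 of 12 other settings, between -0.46 and -0.13, while its second probe gave -0.59 (adjusted p = 0.00538 with every probe on its own). ATP5MK, a small subunit of the membrane part, read 5.60 and 5.31 with Y15 and 4.96 and 4.84 untreated (adjusted p = 0.01), but it was above background on 1 of the 2 treated arrays and on neither untreated one, so no fold is given. It was kept for testing only through that array and 1 U87 array given TMZ plus Y15, so its call is no evidence of a rise.

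The count of 9 in DBTRG cells was 5 without the second untreated array and 3 when only the 4 DBTRG arrays were fitted. Under median centring 5 members were higher and 0 lower, against 18.9% and 9.21% of all genes.

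In U87 cells, Y15 lowered members from all 5 complexes and raised 3 genes. NDUFS1 and NDUFV2 of complex I, SDHA of complex II, CYC1 of complex III, COX5A of complex IV and ATP5F1A, ATP5F1B, ATP5F1D and ATP5PD of complex V fell. SDHC, ATP5MJ and the pseudogene UQCRBP1 rose, and these 3 turned to -0.14, -0.21 and -0.06 under median centring. In all, 12 of 76 members (15.8%) passed, 3 higher and 9 lower, against 22% of all genes tested (8.61% higher and 13.4% lower). The arrays did not overlap for 45 of the members, against 66% of all genes. The members' median log2 change was -0.03, and that of all genes -0.07. These calls rested on the full set of arrays: 2 members passed without the first untreated U87 array, 2 without the second, 0 without the first Y15 array and 1 without the second. They also depended on scaling, since median centring put the median of all genes at -0.60 and that of the members at -0.50, with 0 members higher and 51 lower (67.1%, against 61.2% of all genes).

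In complex I of U87 cells, NDUFS1, the largest core subunit and a carrier of iron-sulphur clusters, read 5.68 and 6.13 on the Y15 arrays and 6.54 and 6.85 on the untreated arrays. It fell by 0.79 ± 0.17 on the log2 scale, to 0.579 of the untreated level (adjusted p = 0.0084). Its raw signal was low with Y15, at 127.8 and 135.8 on arrays with medians of 107.7 and 105.8. Across the 12 other settings its change lay between -1.26 and -0.37. NDUFV2, an iron-sulphur core subunit beside the NADH site, read 11.41 and 11.46 with Y15 and 12.08 and 11.78 untreated, and fell by 0.50 ± 0.12 (adjusted p = 0.0165). The treated and untreated arrays of both genes did not overlap. NDUFV1, which binds NADH and the flavin, read 10.47 and 10.82 with Y15 and 10.79 and 10.71 untreated, and those arrays did overlap. No membrane-arm gene of 19 passed here either (1 at an unadjusted p under 0.05), with changes between -0.31 and 0.40.

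The complex II genes moved in opposite directions in Y15-treated U87 cells. SDHA read 9.96 and 9.89 with Y15 and 10.49 and 10.32 untreated, and fell by 0.48 ± 0.13 on the log2 scale (adjusted p = 0.0267). Its other probe gave -0.60 (adjusted p = 0.0104 with every probe on its own), so both probes were lower in this line. SDHC read 9.70 and 9.72 with Y15 and 9.23 and 9.16 untreated, a rise of 0.51 ± 0.16 (adjusted p = 0.0443). Its second probe changed by only 0.05, so the rise rests on 1 probe. SDHD, the other membrane anchor, read 8.82 and 8.83 with Y15 and 8.58 and 8.82 untreated, a change of 0.12 ± 0.15.

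CYC1 read 11.60 and 11.63 in Y15-treated U87 cells and 12.03 and 12.15 in untreated ones, and fell by 0.48 ± 0.12 on the log2 scale (adjusted p = 0.0157). UQCRBP1, annotated as a pseudogene of UQCRB, read 11.36 and 11.31 with Y15 and 10.81 and 10.88 untreated, a rise of 0.49 ± 0.13 (adjusted p = 0.0211). UQCRB itself changed by 0.08, and how far a probe for the pseudogene also reads UQCRB transcripts was not tested. COX5A, a matrix-side subunit of complex IV, read 12.09 and 12.15 with Y15 and 12.45 and 12.61 untreated, and fell by 0.41 ± 0.12 (adjusted p = 0.0357).

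In the F1 head of complex V, where ATP is made, ATP5F1A read 12.50 and 12.49 on the Y15-treated U87 arrays and 12.93 and 12.97 on the untreated ones. It fell by 0.45 ± 0.12 (adjusted p = 0.0203), and its second probe gave -0.44 (adjusted p = 0.039 with every probe on its own). ATP5F1B, the catalytic beta subunit, read 13.10 and 13.13 with Y15 and 13.45 and 13.42 untreated, and fell by 0.32 ± 0.10 (adjusted p = 0.0463). In both genes each treated array was below each untreated one. ATP5PD, a subunit of the peripheral stalk, read 12.23 and 12.42 with Y15 and 12.81 and 12.62 untreated, and fell by 0.39 ± 0.11 (adjusted p = 0.0322). ATP5F1D, the delta subunit of the central stalk, fell by 0.48 (adjusted p = 0.047), but its second probe gave -0.12 (adjusted p = 0.66). Several U87 calls depended on the setting. Fitting only the arrays compared lost those of NDUFV2, COX5A, ATP5F1B, ATP5PD and ATP5F1D. With the replicate number as a block, ATP5F1B and ATP5MJ were lost, and without the filter on dim probes ATP5F1D, ATP5MJ and SDHC were. ATP5MJ, a small subunit of the membrane part, read 9.73 and 9.84 with Y15 and 9.31 and 9.37 untreated, a rise of 0.44 ± 0.14 (adjusted p = 0.0411). ATP5IF1, the inhibitor, read 10.40 and 10.50 with Y15 and 10.34 and 10.46 untreated, and those ranges overlapped. Of the c-ring genes, ATP5MC2 gave 0.03 on the probe used and -0.89 (adjusted p = 0.0423 with every probe on its own) on its second, so the probes disagreed.

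**Figure D2:**
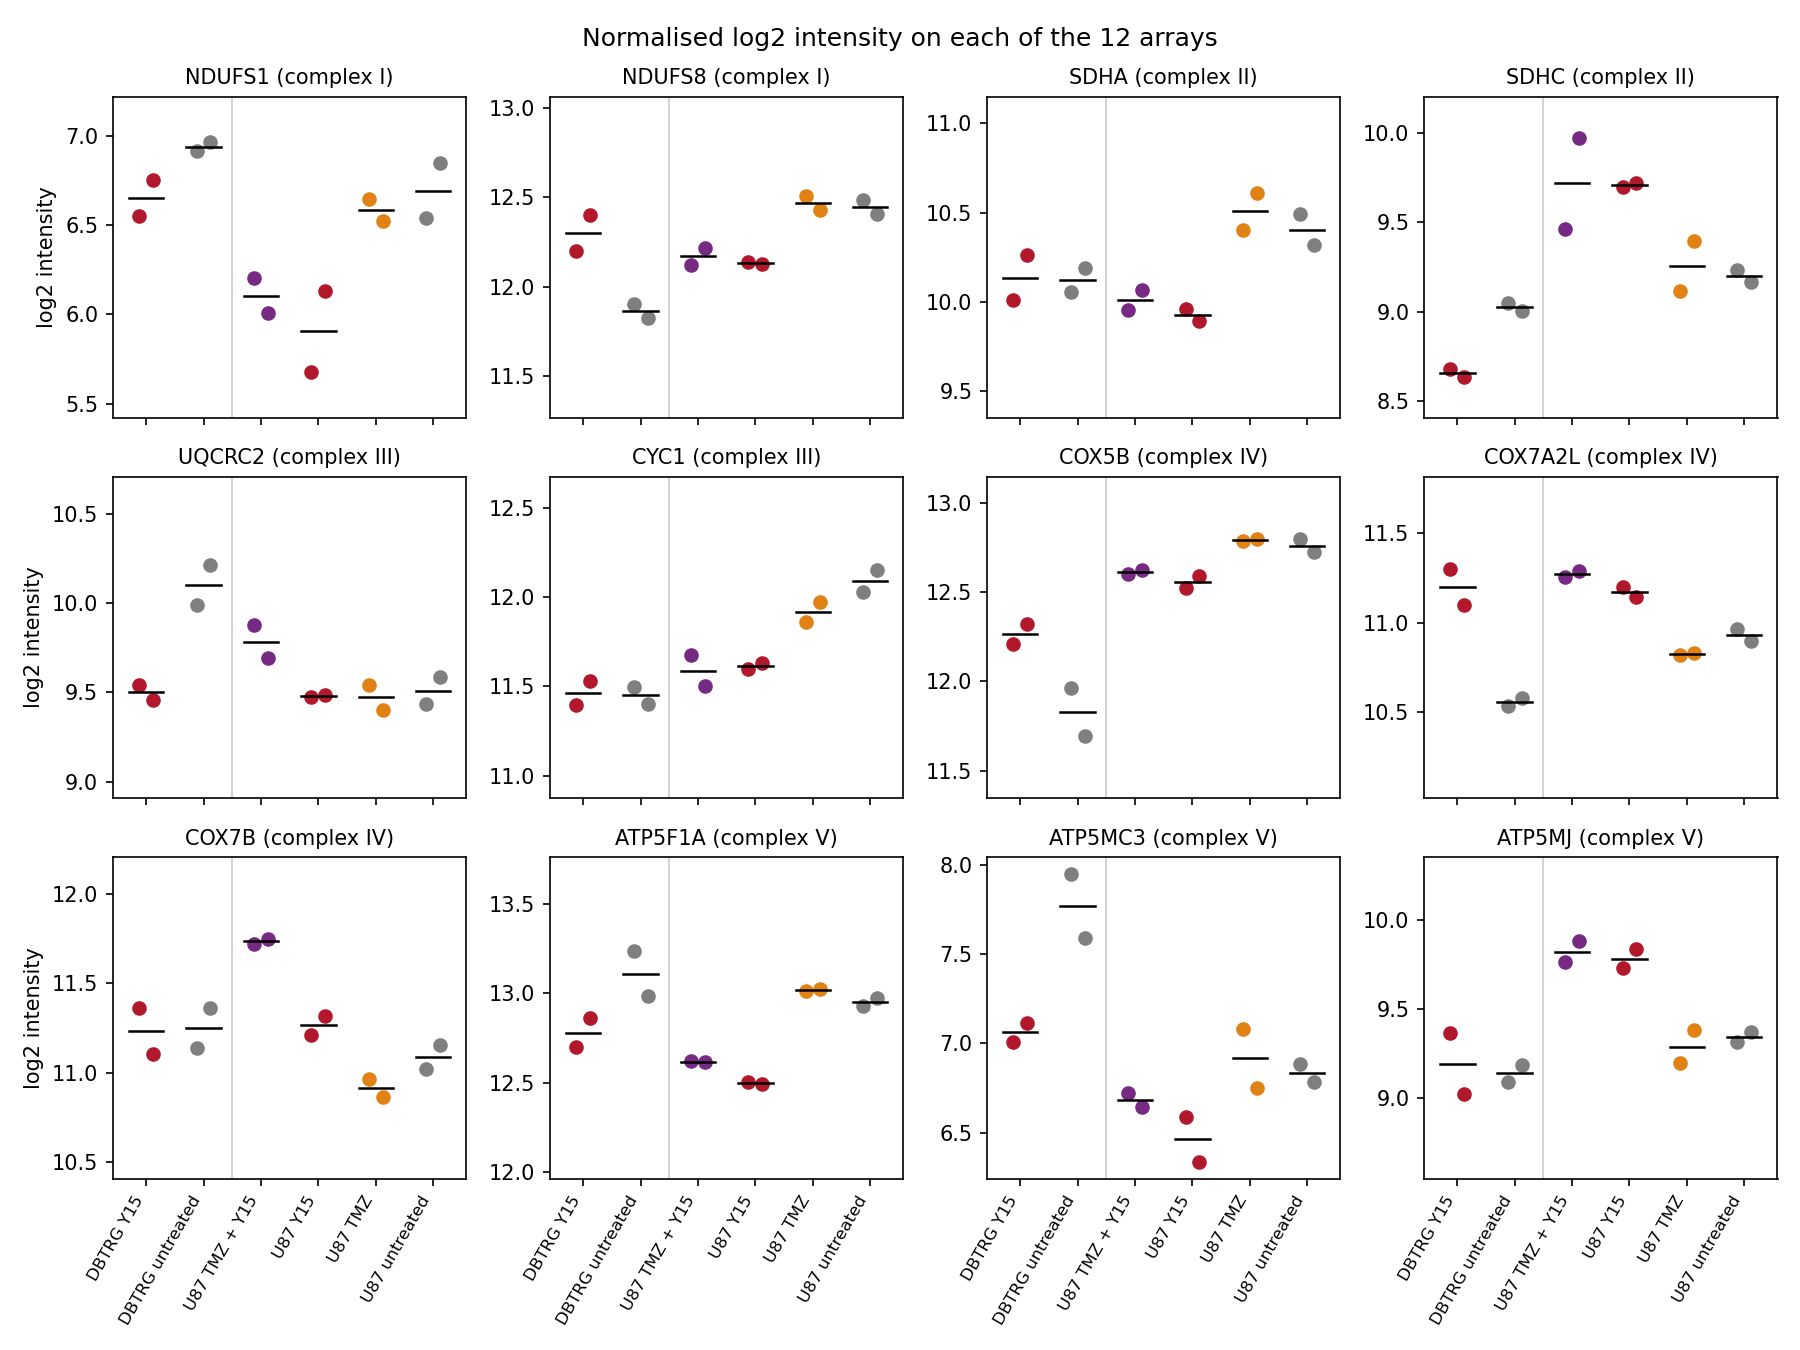
Normalised log2 intensity of 12 member genes on each array (points, 2 per group) with the group mean (line), DBTRG left and U87 right of the grey line; each panel spans the same range of log2 units. COX7A2L is higher on both Y15 arrays of DBTRG than on both untreated ones, and COX7B is highest on the 2 arrays of U87 given TMZ plus Y15.

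TMZ alone changed no member detectably in U87 cells. By limma, 0 of 76 members passed and 1 had an unadjusted p under 0.05, against 1 of 11423 genes (0.00875%) past the adjusted threshold. The one member was NDUFAB1, the mitochondrial acyl carrier protein, with a log2 change of -0.31 ± 0.11. The 95% intervals of all 76 members lay within 2-fold of no change, and those of 74 within 1.5-fold. SDHA averaged 10.51 ± 0.14 (SD, n = 2) with TMZ and 10.4 ± 0.12 untreated. COX4I1 averaged 12.95 ± 0.12 with TMZ and 12.95 ± 0.097 untreated.

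With TMZ plus Y15, U87 cells had 9 of 76 members past the threshold relative to untreated cells (11.8%, against 23.1% of all genes), 6 higher and 3 lower (9.95% and 13.2% of all genes). COX7B, NDUFB9, UQCRBP1, SDHC, ATP5MJ and COX7A2L rose, and NDUFS1, CYC1 and COX5A fell. The arrays of both groups did not overlap for 52 of the members, against 66.8% of all genes. The members' median log2 change was 0.003, against -0.06 over all genes. This comparison shares the untreated arrays with that of Y15 alone, so the 2 sets of calls are not independent. Without 1 array the count lay between 2 and 4: 2 without either untreated array or the second TMZ plus Y15 array, and 4 without the first. Median centring left 1 member higher and 3 lower, against 6.01% and 17% of all genes.

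COX7B, a small supernumerary subunit of complex IV, read 11.72 and 11.75 with TMZ plus Y15 and 11.02 and 11.16 untreated. It rose by 0.65 ± 0.13 on the log2 scale, 1.57-fold (adjusted p = 0.00606). NDUFB9, a membrane-arm subunit of complex I, read 10.85 and 10.54 with TMZ plus Y15 and 9.92 and 10.35 untreated, a rise of 0.56 ± 0.16 (adjusted p = 0.0273). Both genes were higher on each treated array than on each untreated one, although the untreated NDUFB9 arrays lay far apart. COX7A2L read 11.26 and 11.29 with TMZ plus Y15 and 10.96 and 10.90 untreated, a rise of 0.34 ± 0.11 (adjusted p = 0.045). This COX7A2L call was lost under median centring, with the replicate number as a block and with only the arrays compared.

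SDHC read 9.46 and 9.97 with TMZ plus Y15 and 9.23 and 9.16 untreated, a rise of 0.52 ± 0.16 (adjusted p = 0.0407). Its second probe changed by only 0.125 (adjusted p = 0.542 with every probe on its own), so this rise too rests on 1 probe. The SDHC call held under 6 of the 12 other settings and was lost under median centring. UQCRBP1 read 11.34 and 11.44 with TMZ plus Y15 and 10.81 and 10.88 untreated (0.54 ± 0.13, adjusted p = 0.0128). ATP5MJ read 9.77 and 9.88 with TMZ plus Y15 and 9.31 and 9.37 untreated (0.48 ± 0.14, adjusted p = 0.0282). In these 3 genes both treated arrays were above both untreated ones, with the SDHC arrays far apart. A second probe of UQCRH, the hinge protein of complex III, was also higher, by 0.91 (adjusted p = 0.00518 with every probe on its own), while the probe used here changed by 0.15.

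NDUFS1 read 6.2 and 6.01 with TMZ plus Y15 and 6.54 and 6.85 untreated, and fell by 0.59 ± 0.17 (adjusted p = 0.0302). Across the 12 other settings this change lay between -0.74 and -0.29. CYC1 read 11.68 and 11.50 with TMZ plus Y15 and 12.03 and 12.15 untreated, and fell by 0.50 ± 0.12 (adjusted p = 0.0116). COX5A read 12.26 and 12.06 with TMZ plus Y15 and 12.45 and 12.61 untreated, and fell by 0.38 ± 0.12 (adjusted p = 0.0493). That call was lost under median centring, without the filter on dim probes, with the replicate number as a block and with only the arrays compared. For NDUFS1, CYC1 and COX5A all treated arrays lay below the untreated ones. ATP5F1A and SDHA, which carry log2 changes of -0.33 and -0.39 here, did not pass.

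Adding TMZ to Y15 gave no member past the threshold. By limma 0 of 76 passed and 7 had an unadjusted p under 0.05, against 0.306% of all genes past the adjusted threshold (0.0875% higher and 0.219% lower). The 7 were COX7B (0.47 ± 0.13 on the log2 scale), NDUFB9 (0.39), UQCRC2 (0.30), NDUFA6 (0.29), ATP5PD (0.27), NDUFA2 (0.25) and ATP5MK (above background on 1 of the 4 arrays), each higher with TMZ plus Y15. The direct test of whether Y15 acted differently with and without TMZ also gave 0 of 76 (0% of all genes), with 4 members at an unadjusted p under 0.05: COX7B, NDUFAB1, NDUFB9 and ATP5MK. For COX7B that difference was 0.64 ± 0.18, with a 95% interval of 0.24 to 1.05 and an adjusted p of 0.357. Median centring moved 32 members past the threshold between TMZ plus Y15 and Y15 alone, all higher (42.1%, against 31.9% of all genes), with the median of all genes at 0.43.

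Y15 was also given on top of TMZ, and TMZ plus Y15 against TMZ uses other arrays than Y15 against untreated. Here 8 of 76 members passed (10.5%, against 25.3% of all genes), 6 higher and 2 lower (10.9% and 14.5% of all genes). COX7B was 1.77-fold higher (0.82 ± 0.13 on the log2 scale, adjusted p = 0.00167) and passed under each of the 12 other settings, between 0.69 and 0.87. NDUFB9 was 1.69-fold higher (adjusted p = 0.00651), and ATP5MJ, UQCRBP1, NDUFAB1 and COX7A2L were higher by 0.53, 0.47, 0.45 and 0.45. NDUFAB1 had its lower values in the TMZ arrays, at 11.57 and 11.39, against 11.99 and 11.88 with TMZ plus Y15. SDHA and ATP5F1A were lower by 0.50 and 0.40 (adjusted p = 0.0203 and 0.0297). The count was 5 and 3 without the first and the second TMZ array, and 2 and 3 without the first and the second TMZ plus Y15 array. It was 4 under median centring, 2 higher and 2 lower (6.32% and 19.2% of all genes).

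The members' Y15 changes in these 2 unshared pairs of U87 groups agreed in sign about as often as those of all genes. ATP5F1A, SDHA, ATP5MJ and UQCRBP1 passed in both, with the same sign, which is 4 of the 8 called on top of TMZ and 4 of the 12 called without it. The share of all genes called in both was not counted, so this overlap is not a result about the members. The same sign was seen for 58 of the 76 members (76.3%), against 75.8% of all genes. Pearson's r across the 76 genes was 0.72 and Spearman's rho 0.72 (0.81 by Pearson across all genes), and genes are not independent replicates. Between Y15-treated DBTRG and U87 cells, 44 of 76 members had the same sign (57.9%, against 62.5% of all genes), Pearson's r was 0.19, and ATP5F1A, whose DBTRG call depended on the setting, was the 1 gene called in both lines.

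**Figure D3:**
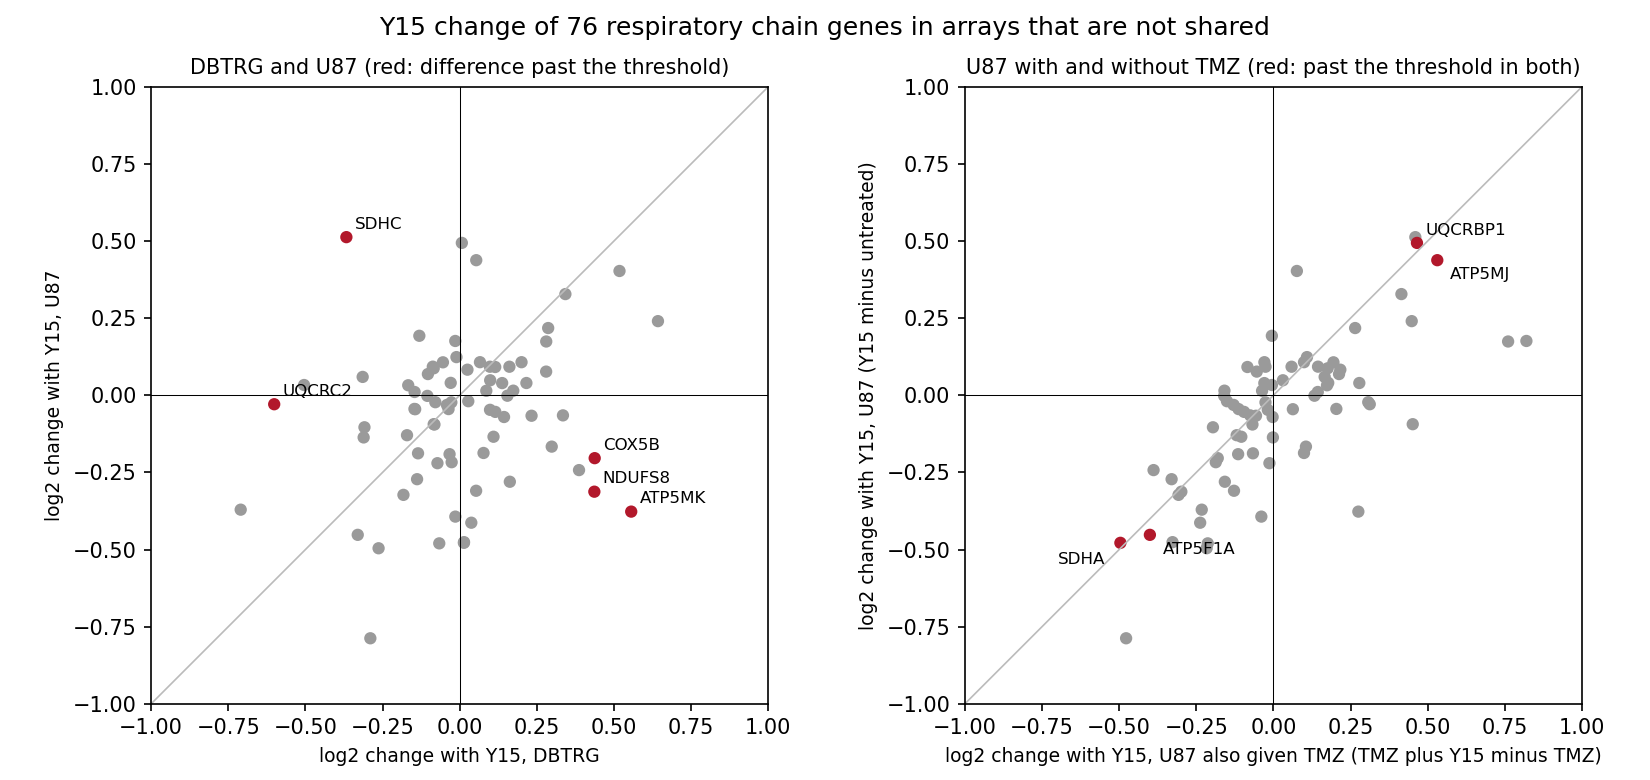
Log2 change with Y15 of the 76 tested members in U87 cells (y axes) against that in DBTRG cells (left) and in U87 cells also given TMZ (right), which use different arrays; the grey line marks equal change. Red points in the left panel are the 5 members whose difference between lines passed the threshold, and those in the right panel are the 4 genes called in both U87 comparisons.

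The Y15 effect differed between the lines for 5 of 76 members (6.58%, against 20% of all genes), by limma's test of the difference (DBTRG minus U87), with 3 positive and 2 negative (12.4% and 7.61% of all genes). In U87 cells NDUFS8 read 12.14 and 12.13 with Y15 and 12.48 and 12.41 untreated. It changed by 0.44 in DBTRG and -0.31 in U87 cells, a difference of 0.75 ± 0.16 (adjusted p = 0.00878). COX5B in U87 cells read 12.52 and 12.59 with Y15 and 12.79 and 12.73 untreated. It changed by 0.44 in DBTRG and -0.20 in U87 cells, a difference of 0.64 ± 0.17 (adjusted p = 0.0217). For both genes the treated arrays lay above the untreated ones in DBTRG and below them in U87 cells, and both were lower in untreated DBTRG than in untreated U87 cells. UQCRC2 in U87 cells read 9.48 and 9.49 with Y15 and 9.43 and 9.59 untreated, which overlap. It changed by -0.60 in DBTRG and -0.03 in U87 cells, a difference of -0.57 ± 0.18 (adjusted p = 0.0454) that turned to 0.26 under median centring. SDHC changed by -0.37 in DBTRG and 0.51 in U87 cells, a difference of -0.88 ± 0.23 (adjusted p = 0.0215), and -0.57 (adjusted p = 0.0547) on its second probe. ATP5MK, the fifth, was at or near background in both lines. It was kept for testing only through a Y15-treated DBTRG array and a TMZ plus Y15 array of U87, so its difference is no evidence of an effect.

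Of these 5, NDUFS8 passed under each of the 16 other settings. The count was 4, 3, 8 and 5 without DBTRG untreated array 1, DBTRG untreated array 2, DBTRG Y15 array 1 and DBTRG Y15 array 2. It was 2, 2, 2 and 3 without the corresponding arrays of U87, untreated before Y15.

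Between untreated DBTRG and untreated U87 cells, 30 of 76 members passed (39.5%, against 59.3% of all genes), 17 higher and 13 lower in DBTRG (26.8% and 32.5% of all genes). The 13 include NDUFB1, which was kept for testing only through U87 arrays. The arrays of the lines did not overlap for 58 of the members, against 79.6% of all genes. Under median centring the split was 3 higher and 30 lower (13.1% and 50% of all genes). The median of all genes then moved to -0.48, and that of the members to -0.36. The fitted difference was 2-fold or more in 4 members, all in complex I (NDUFB1 among them, for which only a bound holds), and in 24.3% of all genes. Which genes these were depended on the scaling: under median centring NDUFA12, NDUFC1 and NDUFA6 stood at 0.49, 0.47 and 0.46 on the log2 scale, while COX5B, ATP5IF1, ATP5PB and CYC1 stood at -1.34, -1.32, -1.09 and -1.07. The members' median absolute difference was 0.23, against 0.52 over all genes.

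Most complex I genes differed little between the lines, with a middle 50% from -0.17 to 0.23, and 11 of 33 passed. NDUFA12, a supernumerary subunit of the matrix arm, read 10.97 and 10.92 in DBTRG and 9.88 and 9.89 in U87 cells, 2.09-fold higher (1.07 ± 0.10 on the log2 scale, adjusted p = 7.57e-06). NDUFC1, a small membrane-arm subunit, read 10.73 and 10.71 in DBTRG and 9.66 and 9.67 in U87 cells (1.06 ± 0.10), and NDUFA6, a matrix-arm subunit that binds the acyl carrier protein, read 9.65 and 9.79 in DBTRG and 8.66 and 8.72 in U87 cells (1.03 ± 0.12). In each the lines stood apart by many times the distance between replicates. NDUFB1, a membrane-arm subunit, read 4.90 and 5.21 in DBTRG, not well above background, and 6.31 and 6.07 in U87 cells, where it was detected on both arrays. It was at least 1.61-fold lower in DBTRG, taking the lowest signal well above background as the bound. NDUFB1 was kept for testing only through U87 arrays, so its call sets signal against background and is no test of a difference in level. The core subunits NDUFS8, NDUFS7 and NDUFV2 were lower in DBTRG by 0.58, 0.36 and 0.35.

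In complex III, CYC1 read 11.50 and 11.40 in DBTRG and 12.03 and 12.15 in U87 cells, a difference of -0.64 ± 0.12 (adjusted p = 0.000716). UQCR11, UQCRC2 and UQCR10 were higher in DBTRG by 0.73, 0.59 and 0.53, and the 2 other probes of UQCR10 gave 1.90 and 1.47. In complex IV, COX5B read 11.96 and 11.70 in DBTRG and 12.79 and 12.73 in U87 cells, a difference of -0.93 ± 0.12 (adjusted p = 5.36e-05). COX4I1 and COX7A2L were lower in DBTRG by 0.64 and 0.38, while COX7C, COX8A and COX7A2 were higher by 0.45, 0.41 and 0.40.

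In complex V, ATP5MC3 read 7.95 and 7.59 in DBTRG and 6.88 and 6.78 in U87 cells, a difference of 0.94 ± 0.16 (adjusted p = 0.000429). ATP5MG, a small membrane subunit, read 12.38 and 12.47 in DBTRG and 11.57 and 11.64 in U87 cells (0.82 ± 0.11), and its second probe gave 0.84. Both calls were lost under median centring, at 0.48 for ATP5MC3 and 0.32 for ATP5MG. ATP5IF1 read 9.52 and 9.73 in DBTRG and 10.34 and 10.46 in U87 cells, a difference of -0.78 ± 0.12 (adjusted p = 0.000251), but its second probe gave 0.17 (adjusted p = 0.567), so its probes disagreed. ATP5PB, a peripheral-stalk subunit, read 11.79 and 11.83 in DBTRG and 12.51 and 12.44 in U87 cells (-0.67 ± 0.11), and its second probe gave -0.52. No complex II gene of 3 passed between the lines, with 0 at an unadjusted p under 0.05. In all 4 complex V genes the lines did not overlap.

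**Figure D4:**
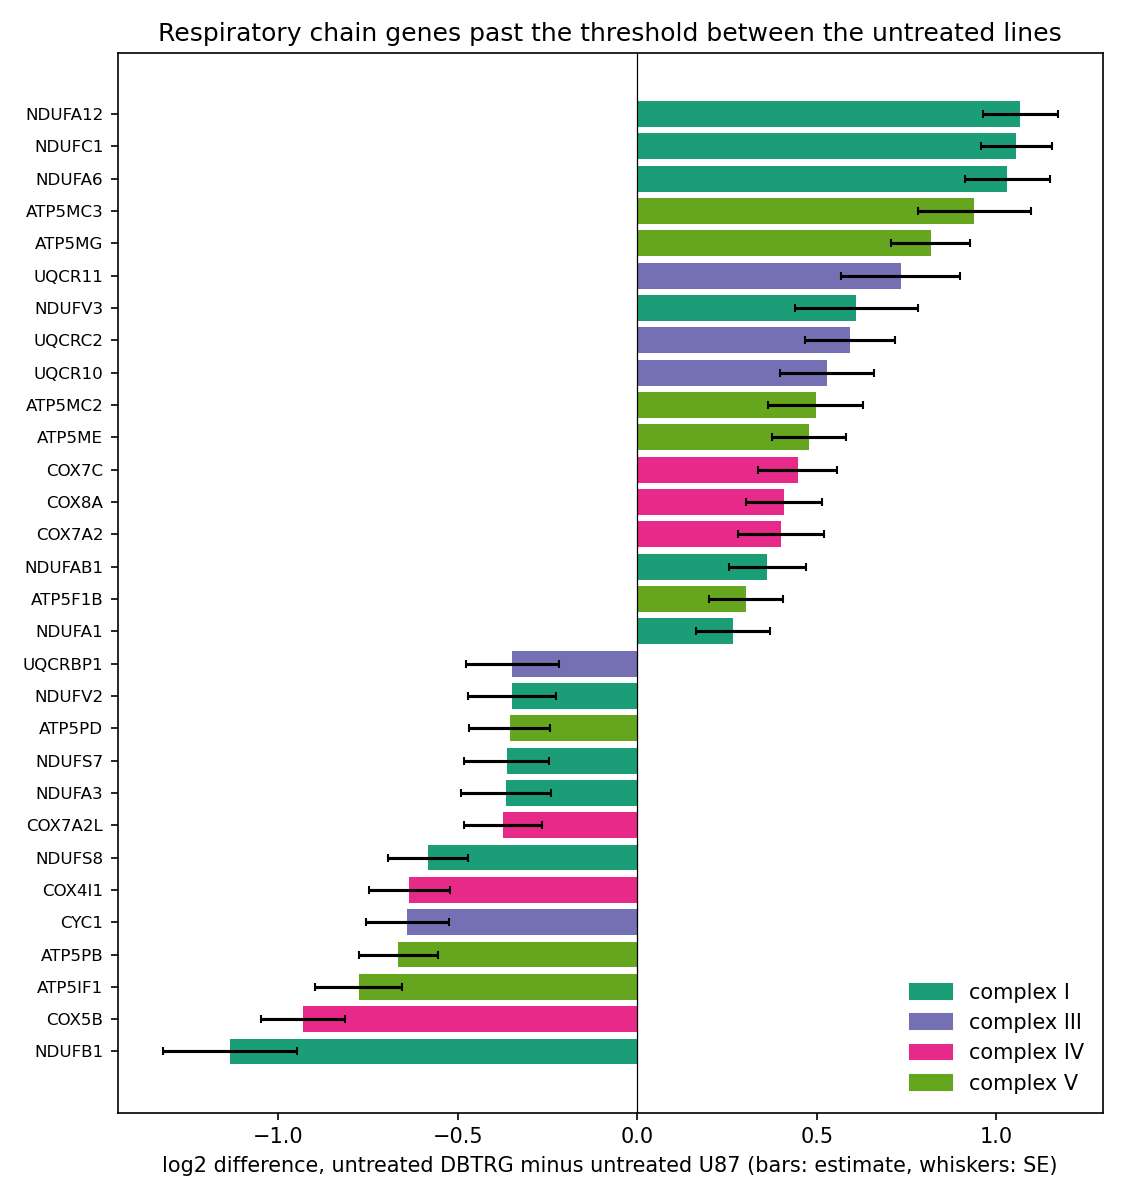
Log2 difference (bar) and its standard error (whisker) of the 30 members past the threshold between untreated DBTRG and untreated U87 cells, coloured by complex; bars to the right are higher in DBTRG. Those for NDUFA12, NDUFC1 and NDUFA6 exceed 1, and NDUFB1, at the bottom, was below background in DBTRG, so its bar is an estimate without a true level there.

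Genes that build and supply the chain were followed as lists. Of all genes, 19.4% were higher and 18.4% lower with Y15 in DBTRG, 8.61% and 13.4% with Y15 in U87, and 9.95% and 13.2% with TMZ plus Y15 against untreated U87. Of 52 tested assembly factors, 12 were higher (23.1%) and 4 lower (7.69%) with Y15 in DBTRG, 4 higher (7.69%) and 1 lower (1.92%) in U87, and 5 higher (9.62%) and 3 lower (5.77%) with TMZ plus Y15. The shares higher were thus near those of all genes. COX19, a copper-handling assembly factor of complex IV, rose in all 3 comparisons, 2.2-fold, 2.78-fold and 2.69-fold (adjusted p = 0.000236, 0.000129 and 0.000181). Under median centring the list had 10 higher and 1 lower, 3 higher and 37 lower, and 2 higher and 3 lower in these comparisons. The shares of all genes were then 18.9% higher and 9.21% lower, 3.62% and 61.2%, and 6.01% and 17% in the same order. Of 14 genes for electron carriers and coenzyme Q synthesis, COQ8A, an atypical kinase of the coenzyme Q pathway, rose 4.12-fold with Y15 in DBTRG (adjusted p = 1.75e-06), and its change in U87 was smaller by 2.01 ± 0.17 on the log2 scale (adjusted p = 0.000124). The list had 1 higher and 3 lower (21.4%) with Y15 in DBTRG, 0 higher and 4 lower (28.6%) with Y15 in U87, and 0 and 3 (21.4%) with TMZ plus Y15. Under median centring it had 1 and 0, 0 and 14, and 0 and 3.

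The citrate cycle feeds electrons to the chain. Of its 16 tested genes, 0 were higher and 6 lower (37.5%) with Y15 in DBTRG, 0 and 3 (18.8%) with Y15 in U87, and 0 and 6 (37.5%) with TMZ plus Y15 against untreated U87. With Y15 alone in U87 the share lower was near the 13.4% of all genes. SUCLG2, a succinyl-CoA synthetase subunit, fell by 0.74, 0.79 and 0.79 on the log2 scale in these comparisons (adjusted p = 0.00173, 0.00272 and 0.00264). The list's medians were -0.39, -0.27 and -0.32, against 0.01, -0.07 and -0.06 for all genes. Under median centring its counts were 0 higher and 1 lower in DBTRG, 0 and 16 with Y15 in U87 and 0 and 7 with TMZ plus Y15. The shares of all genes lower were then 9.21%, 61.2% and 17%.

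Of 78 mitochondrial ribosomal proteins, which make the subunits encoded in mitochondria, 17 were higher (21.8%, near the 19.4% of all genes) and 1 lower with Y15 in DBTRG, 0 and 3 in U87, and 4 and 2 with TMZ plus Y15 against untreated U87. Of 28 import and chaperone genes, 6 were higher (21.4%) and 2 lower, 0 and 1, and 2 and 0 in the same order. HSPE1, a mitochondrial chaperonin, fell by 0.73 in DBTRG (adjusted p = 0.000487). Of 13 regulators, 3 were higher and 1 lower, 0 and 2, and 1 and 2. TWNK, the mitochondrial DNA helicase, rose 2.41-fold in DBTRG (adjusted p = 0.000147) and 1.8-fold with TMZ plus Y15 in U87 (adjusted p = 0.00394). TFB1M changed by -0.7 with Y15 in U87 (adjusted p = 0.00176) and by -0.632 with TMZ plus Y15 (adjusted p = 0.00314), and TFB2M by 0.765 in DBTRG (adjusted p = 0.0033). GABPA, the DNA-binding subunit of GABP, fell by 0.57 in DBTRG (adjusted p = 0.00418), a call lost under median centring. In Y15-treated U87 cells it did not pass (-0.261, adjusted p = 0.157). YY1 fell by 0.58 in Y15-treated U87 cells (adjusted p = 0.0114) and changed by 0.014 in DBTRG. PPARGC1A, a coactivator of respiratory genes, was higher in untreated DBTRG than in untreated U87 cells (adjusted p = 8.17e-07), but was detected on 1 of the 2 untreated U87 arrays, so no fold is given. Median centring gave 64 ribosomal proteins, 22 import genes and 8 regulators lower with Y15 in U87, with 61.2% of all genes lower.

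The size of the medians depended on the scaling, and in 2 of the 6 treatment comparisons, Y15 in DBTRG and TMZ plus Y15 against untreated U87, so did their sign. Quantile normalization held the members' medians between -0.03 and 0.06 across the 6 treatment comparisons, whereas median centring gave -0.50 for Y15 and -0.05 for TMZ plus Y15 in U87, and 0.16 for Y15 in DBTRG. Relative to all genes, the members stood 0.05, 0.10 and 0.13 higher under median centring for Y15 in DBTRG, Y15 in U87 and TMZ plus Y15 in U87. Which scaling is nearer to RNA per cell was not tested.

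**Figure D5:**
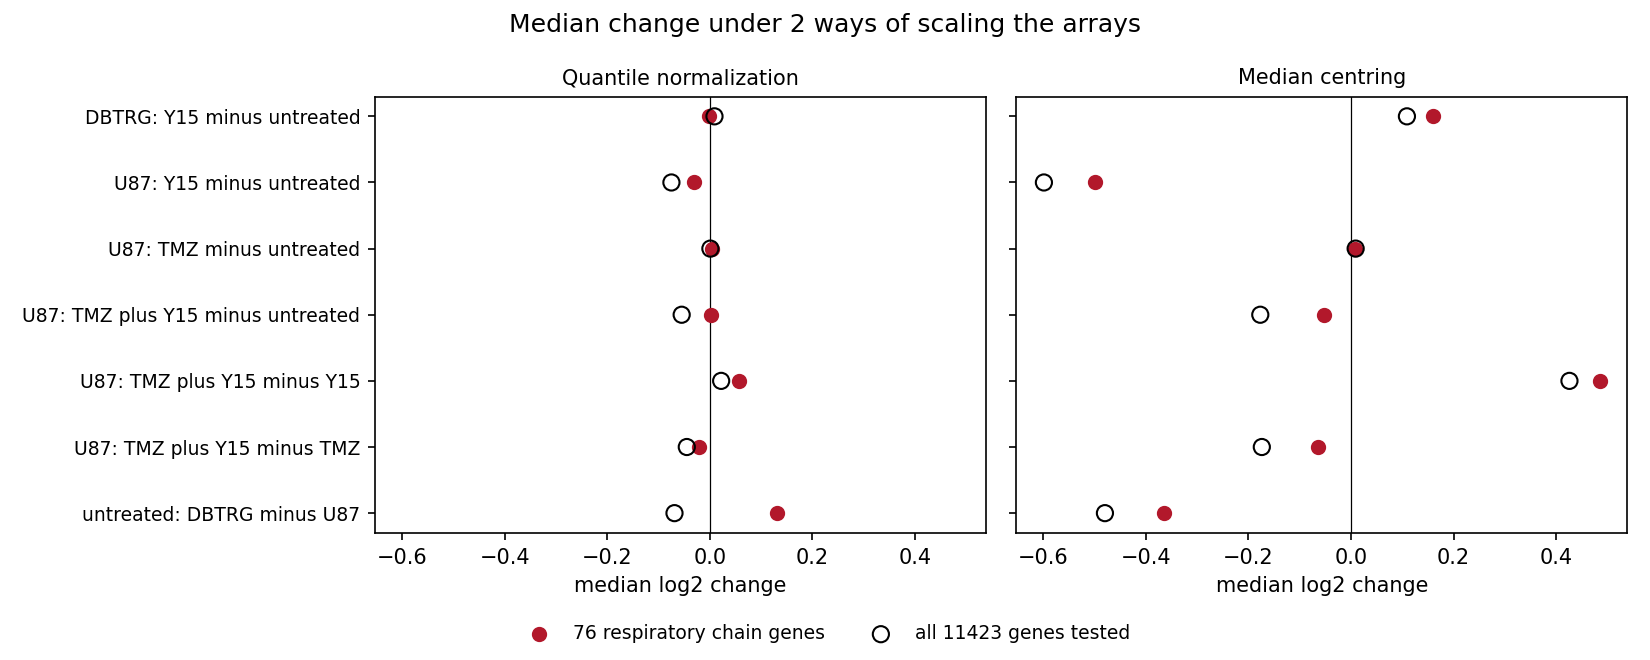
Median log2 change of the 76 tested members (red) and of all 11423 genes tested (open circles) in 7 comparisons under quantile normalization (left) and median centring (right). With median centring both medians shift together, to -0.50 and -0.60 for Y15 in U87 cells, and the members stay within 0.13 of all genes in every comparison.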

How the data were processed

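The deposited file of non-normalized values holds, per the file headers, a signal intensity and a detection p-value for each probe and array; the submitters' processing notes name GenomeStudio (version: not given in the sources used here). Also, the authors deposited a log2 table, which equals the quantile-normalized log2 intensity without background correction (largest difference 5e-09).

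Intensities were background-corrected with normexp from the detection p-values (offset 16), quantile-normalized and taken to log2 in limma 3.58.1 (R 4.3.3). Probes with detection p under 0.01 on at least 2 arrays were kept (19354 of 47323). Symbols are those of the platform annotation table (30113 probes had 1 symbol, 30074 of them in the RefSeq gene table, 8 had several and 17202 none), and the kept probe with the highest mean stood for its gene (11423 genes). One fit with 6 group means (lmFit, eBayes) gave all contrasts, with Benjamini-Hochberg adjustment over all genes and a threshold of 0.05. The script was tested on simulated data.

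The array holds intensities and not counts, so 2 arrays a group limit the precision. The members, lists and promoters shown were chosen with earlier results of these data known. Arrays were quoted for up to 2 called members of each complex and direction in each comparison with untreated cells, the 5 largest differences each way between the lines, 3 of each direction for differences of effects, and a fixed set that includes SDHA, SDHC, SDHD, CYC1, NDUFS1, NDUFV1, COX4I1, ATP5F1A, ATP5F1B and ATP5IF1. From each other list up to 2 called genes were eligible; GABPA, and the array values of ATP5MC1 and of NDUFAB1, were added after their values were seen. Alternatives were median centring, the deposited log2 table, an offset of 50, no background correction, no filter on dim probes, each probe on its own, array weights, only the arrays compared, the replicate number as a block, and leaving out each array.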

Additional observations from a re-analysis of the deposited data

Results flagged for a closer look

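The change with Y15 differed between DBTRG and U87 cells in 5 members, by limma's test of the difference itself. For NDUFS8 the difference (DBTRG minus U87, log2) was 0.75, with changes of 0.44 in DBTRG and -0.31 in U87 cells. For COX5B it was 0.64, with changes of 0.44 and -0.20 in the same order. For SDHC it was -0.88, with changes of -0.37 and 0.51, and for UQCRC2 it was -0.57, with changes of -0.60 and -0.03. For ATP5MK it was 0.93, but that gene was above background on 2 of the 12 arrays, so the value is not a measured fold. Under median centring UQCRC2 turned to 0.26 and SDHC kept its sign at -0.10 without passing.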

How the results depend on the processing

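With median centring, 5 members passed for Y15 in DBTRG, 51 for Y15 in U87, 4 for TMZ plus Y15 against untreated, 32 against Y15 alone, 4 against TMZ and 43 (56.6%, all higher) for the difference of the Y15 effect between lines. Of all genes, 18.9% were then higher and 9.21% lower for Y15 in DBTRG, and 3.62% and 61.2% for Y15 in U87. The shares were 6.01% and 17% for TMZ plus Y15 against untreated, 31.9% and 0.665% against Y15 alone and 6.32% and 19.2% against TMZ. For the difference between lines they were 51.5% and 2.65%. The members' medians then were 0.16, -0.499, -0.052, 0.485, -0.065 and 0.701 in that order, -0.365 between the untreated lines and 0.46 for the Y15 effect with TMZ minus without. Named changes that turned sign were ATP5MJ (-0.21), UQCRBP1 (-0.06) and SDHC (-0.14) for Y15 in U87, and UQCRC2 (0.26) for the difference between lines; the cause was not tested. The deposited log2 table and no background correction each gave 15 for Y15 in DBTRG, 16 for TMZ plus Y15 against untreated, 1 against Y15, 16 against TMZ and 15 for the difference between lines. Array weights gave 15, 1 and 15 for TMZ plus Y15 against untreated, Y15 and TMZ. An offset of 50 gave 14 against TMZ and 8 for the difference between lines, and fitting only the arrays compared gave 3 for Y15 in DBTRG and 3 for that difference.

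Leaving out 1 array gave 5 to 7 members for Y15 in DBTRG (medians -0.01 to 0.045), 0 to 2 for Y15 in U87 (-0.074 to -0.004), 0 to 0 for TMZ (-0.032 to 0.026), 2 to 4 for TMZ plus Y15 against untreated (-0.015 to 0.031), 0 to 0 against Y15 (0.041 to 0.084) and 2 to 5 against TMZ (-0.048 to 0.015). It gave 21 to 24 between the untreated lines (0.042 to 0.108), 2 to 8 for the difference between lines (0.02 to 0.109) and 0 to 0 for the effect with TMZ minus without (0.035 to 0.09). A lone array was then assumed to vary like the other groups.

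With the replicate number as a block, 8, 11, 0, 7, 0, 8 and 29 members passed for Y15 in DBTRG, Y15 in U87, TMZ, TMZ plus Y15 against untreated, Y15 and TMZ, and the untreated lines, and 4 for the difference between lines. Same-numbered arrays showed no large shared deviation (15 pairs, r between -0.055 and 0.111). Such correlations cannot decide whether same-numbered arrays were handled together. Arrays per group (2), probes near background (NDUFB4, NDUFB1, ATP5MK) and disagreeing probes (SDHA, SDHC, ATP5MC1, ATP5MC2, ATP5F1D, ATP5IF1, UQCRH) limit the single-gene values.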
